A study of Mus musculus with 6 samples.

Results

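The Hox genes lie in 4 clusters, Hoxa to Hoxd, and were examined here in the caudal artery, which runs the length of the mouse tail. They were taken as the probe sets whose only gene symbol on the array was Hox followed by a cluster letter and a number. This gave 48 probe sets for 33 genes, of 18193 genes with a probe set of their own. Each gene was read from its probe set with the highest mean over the 6 arrays, and the other probe sets of 11 genes served as support. Hox genes outside these 33 were not analysed here. Expression was measured on Affymetrix MOE430 2.0 arrays in Notch3-/- mice and in Notch3+/+ mice, both 4 weeks old (postnatal day 28) with no strain or sex given in the labels. Each genotype had 3 pools of arteries, with 4 mice in every Notch3-/- pool and 4, 3 and 3 mice in the Notch3+/+ pools. The labels call the pools biological replicates, and each pool counted as 1 sample. They do not describe the targeted Notch3 allele. Because arteries were pooled whole, differences between single mice are not visible, and fewer cells of a type cannot be told apart from less RNA per cell.

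Hox genes encode homeodomain transcription factors that give cells their position along the body axis. Their order on the chromosome follows their order of expression, from paralogue group 1, used in the hindbrain, to group 13, used at the tail end and in the digits and urogenital tract. Adult fibroblasts and vascular smooth muscle keep part of the pattern set in the embryo. Smooth muscle cells of arteries carry the receptor Notch3, and the comparison of genotypes asks whether Hox expression depends on it.

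The arrays matched their labels. Notch3 read 6.51, 6.44 and 5.87 on the log2 scale in Notch3-/- pools, against 9.94, 9.95 and 10.09 in Notch3+/+ pools, a change of -3.72 (SE 0.17, limma adjusted p = 0.000529). The smooth muscle genes Acta2, Tagln and Myh11 averaged 13.25, 12.92 and 12.05 in Notch3-/- pools and 13.20, 12.97 and 12.01 in Notch3+/+ pools, near the top of a scale that ended at 13.38. The other 4 smooth muscle markers had changes of 0.51 for Cnn1, -0.58 for Smtn, -0.39 for Myocd and -0.26 for Lmod1, none past the threshold. On the first principal component (45.2% of the variance), Notch3-/- replicate 2 lay far from the rest, at 39.5, whereas the remaining 5 pools spanned -17.1 to 5.85.

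The Hox genes that reached the level for testing in the tail artery ran from paralogue group 2 to group 13, without group 12. Of the 33 genes, 23 had a mean at or above 3.83, the 40th percentile of all probe sets, which is the level below which no test was run. That is 69.7% of the Hox genes, beside 70.0% of all genes. The level is no detection call, since 15 of 83 probe sets for olfactory, vomeronasal and taste receptors, chiefly genes of sensory cells, also lay above it. Their 95th percentile, 5.93, was reached by 9 Hox genes: Hoxb3, Hoxa5, Hoxd8, Hoxa9, Hoxd9, Hoxc10, Hoxa11, Hoxb13 and Hoxc13. Of these 9, 6 belong to groups 9 to 13, which hold 14 of the 33 Hox genes and 11 of the 23 above the lower level. The share of all genes that reached 5.93 was not counted. Hoxb2, the one group 2 gene above the lower level, had a mean of 5.21 and did not reach 5.93. Levels of different probe sets depend on their probes and were set only against these shared marks, not against one another.

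**Figure D1:**
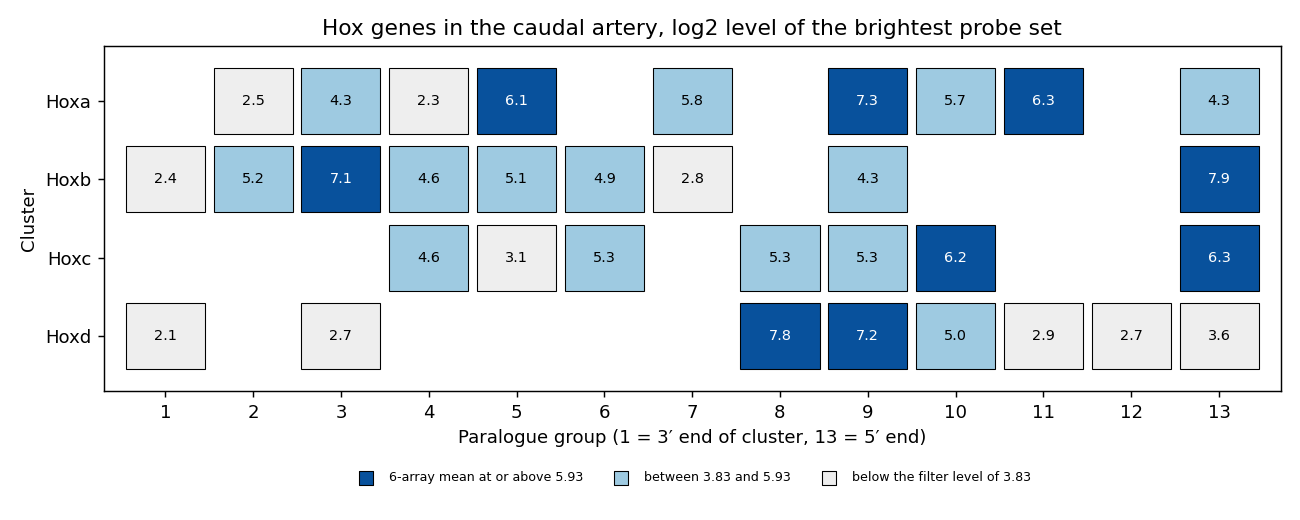
Each box is 1 of the 33 Hox genes analysed, with the clusters as rows and the paralogue groups as columns, and the number is the mean log2 level of its brightest probe set over 6 arrays. Dark boxes reach 5.93, light blue boxes lie between 3.83 and 5.93 and grey boxes lie below 3.83; group 1 and group 12 have grey boxes only.

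Groups 1 to 3, which pattern the hindbrain and pharyngeal arches, were the least represented, with 3 of 7 genes above the level. Hoxb1 averaged 2.30 ± 0.19 in Notch3-/- pools and 2.40 ± 0.26 in Notch3+/+ pools (SD, n = 3 each), and Hoxd1 averaged 2.04 ± 0.07 in Notch3-/- pools and 2.12 ± 0.14 in Notch3+/+ pools (SD, n = 3 each). Hoxa2, the selector gene of the second pharyngeal arch, had a mean of 2.46 over the 6 arrays, and Hoxd3 one of 2.69. The genes of these groups above the level were Hoxb2, Hoxa3, which the embryo needs for the thymus and for the carotid artery of the third arch, and Hoxb3. Hoxa3 was above it on 1 of its 4 probe sets, and Hoxb3 on both of its 2.

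Groups 4 to 8, used in the neck and trunk, had 9 of 12 genes above the level. They were Hoxb4, Hoxc4, Hoxa5, Hoxb5, Hoxb6, Hoxc6, Hoxa7, Hoxc8 and Hoxd8. Hoxd8 was the one gene of cluster d below group 9 that passed, with its 2 probe sets at 7.76 and 6.42 over the 6 arrays. Hoxa4 (2.27), Hoxc5 (3.08, highest of 3 probe sets) and Hoxb7 (2.83) stayed below the level. In groups 4, 5 and 7, therefore, only some of the measured paralogues had a probe set above it. A probe set below the level does not show that its gene is silent. The Hoxb4 result rested on 1 of its 2 probe sets, at 4.61 beside 3.65 for the other.

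Groups 9 to 13, the posterior genes, used from the thorax to the tail end, had 11 of 14 genes above the level. All 4 genes of group 9 and all 3 genes of group 10 were among them. The Hoxa10 result rested on 1 of its 2 probe sets, at 5.70 beside 2.63 for the other. In group 11, Hoxa11, which shapes the limbs and the uterus, averaged 6.31 ± 0.03 in Notch3-/- pools and 6.35 ± 0.08 in Notch3+/+ pools (SD, n = 3 each), whereas Hoxd11 had a mean of 2.92. Group 12 was represented by Hoxd12 alone, at 2.68. In group 13, Hoxa13, Hoxb13 and Hoxc13 lay above the level and Hoxd13, a digit gene, did not, with its 2 probe sets at 3.60 and 3.12.

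The clusters differed in which part was above the level. In cluster d the genes Hoxd8, Hoxd9 and Hoxd10, which are neighbours, passed, and the 3 genes on the 5′ side of them (Hoxd11, Hoxd12 and Hoxd13) and the 2 measured on the 3′ side (Hoxd1 and Hoxd3) did not. In cluster a, 7 of 9 genes passed, in cluster b 7 of 9 and in cluster c 6 of 7.

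Between the genotypes, 0 of the 23 tested Hox genes passed limma's test at an adjusted p of 0.05, and 6 had an unadjusted p under 0.05. Among all genes tested, 0.322% passed and 11.9% had an unadjusted p under 0.05, beside 26.1% of the Hox genes. By position, Hoxc13, Hoxb13, Hoxd10 and Hoxb9, all of groups 9 to 13, read higher in Notch3-/- pools, and Hoxa5 and Hoxa7, of groups 4 to 8, read lower. Of all genes tested, 7.10% had such a p and read higher and 4.81% lower. For 6 Hox genes the genotypes' pools were free of overlap, 4 higher and 2 lower, or 26.1%, beside 17.3% of all genes. Pools without overlap were found higher in Notch3-/- for 9.46% of all genes and lower for 7.88%.

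The largest difference was that of Hoxc13, a group 13 gene required for hair and nails. It read 6.74, 6.57 and 6.43 in Notch3-/- pools, against 6.13, 6.03 and 6.02 in Notch3+/+ pools (probe set 1425874_at). Every Notch3-/- pool lay above every Notch3+/+ pool. The change was 0.52 (SE 0.10, 95% interval 0.29 to 0.75), or 1.43-fold, with a limma adjusted p of 0.127. Leaving out any one pool left it between 0.44 and 0.60 without passing. When limma weighted the arrays by their fit, from 0.29 for Notch3-/- replicate 2 to 3.04 for Notch3-/- replicate 3, the adjusted p was 0.0289. Hoxc13 is also a gene of hair-forming skin, and some dim markers of keratinocytes read higher in the same pools. Their summed log2 level was 7.06 to 7.23 in Notch3-/- pools and 6.88 to 6.96 in Notch3+/+ pools. Of 6 markers, all 4 above the filter level had positive changes, none past the threshold, of 0.60 for Krtdap, 0.20 for Krt5, 0.16 for Lor and 0.08 for Krt10. Krt14 and Krt1, which define the basal and upper epidermis, were below the level at 2.80 and 2.82, with differences of 0.02 and -0.17. The brightest of the 6 markers, Krt10, had a mean of 5.55, below the 5.93 mark of the sensory receptor genes. The part of skin in the Hoxc13 difference was not tested.

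Hoxb13, which limits the length of the tail in the mouse embryo and is later active in the prostate, differed the same way. It read 8.06, 8.18 and 8.19 in Notch3-/- pools, against 8.01, 7.71 and 7.35 in Notch3+/+ pools (probe set 1419576_at). The groups did not overlap, but the Notch3+/+ pools were widely spread and the highest of them lay close to the Notch3-/- pools. The change was 0.45 (SE 0.16, interval 0.08 to 0.82), or 1.37-fold, with a limma adjusted p of 0.364. Without Notch3+/+ replicate 3, the lowest pool, it was 0.28, and without Notch3+/+ replicate 1 it was 0.61.

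The remaining group 13 gene above the level was Hoxa13, a gene of the digits, the hindgut and the umbilical artery. It read 4.36, 4.10 and 4.52 in Notch3-/- pools, against 4.21, 4.51 and 4.36 in Notch3+/+ pools, so the groups overlapped. The change was -0.03 (SE 0.13, interval -0.33 to 0.27), and its sign turned with the pool left out. Whether the changes of the group 13 genes differed from each other was not tested.

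**Figure D2:**
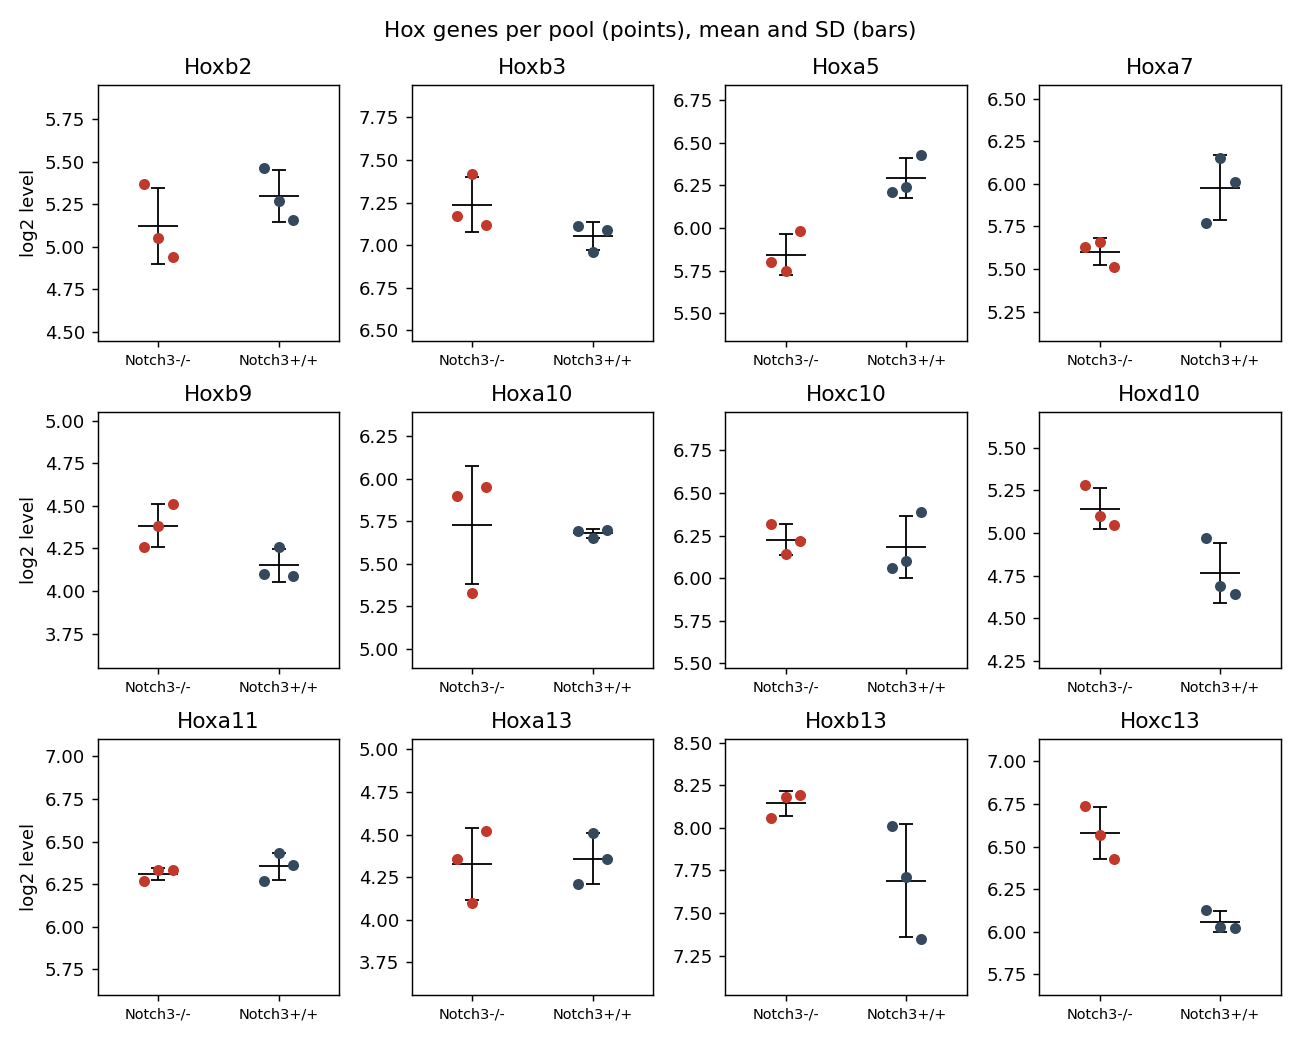
Points are the log2 levels of single pools, in Notch3-/- (left, red) and Notch3+/+ (right, dark) arteries, for 12 Hox genes, with the mean and SD of 3 pools as bars and a vertical span of equal length in every panel. The pools of Hoxb3, Hoxd10, Hoxb13 and Hoxc13 are higher in Notch3-/- without overlap, those of Hoxa5 and Hoxa7 lower, and the rest overlap or touch.

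Among the genes of groups 10 and 11, Hoxd10 was the one with an unadjusted p under 0.05. Hoxd10, which with other group 10 genes patterns the lumbar spine and hindlimb nerves, read 5.28, 5.10 and 5.05 in Notch3-/- pools, against 4.97, 4.69 and 4.64 in Notch3+/+ pools (probe set 1418606_at). All Notch3-/- pools were above all Notch3+/+ pools, by a change of 0.38 (SE 0.11, interval 0.11 to 0.64, limma adjusted p = 0.300). Hoxa10, which is needed for vertebral identity and the uterus, read 5.90, 5.33 and 5.95 in Notch3-/- pools, against 5.69, 5.65 and 5.70 in Notch3+/+ pools. Its change was 0.05 (SE 0.16), and Notch3-/- replicate 2 lay below all other pools. Hoxc10 read 6.32, 6.14 and 6.22 in Notch3-/- pools, against 6.06, 6.10 and 6.39 in Notch3+/+ pools, a change of 0.04 (SE 0.11). The Hoxa11 values, at 6.27, 6.33 and 6.33 in Notch3-/- pools against 6.27, 6.43 and 6.36 in Notch3+/+ pools, gave a change of -0.04 (SE 0.08, interval -0.23 to 0.14). Whether Hoxd10 differed from Hoxa10 and Hoxc10 in its change was not tested.

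In group 9, which patterns the thorax and its ribs, Hoxb9 read 4.26, 4.38 and 4.51 in Notch3-/- pools, against 4.10, 4.26 and 4.09 in Notch3+/+ pools. The lowest Notch3-/- pool equalled the highest Notch3+/+ pool. The change was 0.23 (SE 0.10, limma adjusted p = 0.422), at levels close to the filter level of 3.83. The other group 9 genes read lower by small amounts, with -0.04 for Hoxa9, -0.08 for Hoxc9 and -0.12 for Hoxd9, and their pools overlapped. The second Hoxa9 probe set read -0.13.

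Hoxa5 and Hoxa7 were the 2 genes that read lower with an unadjusted p under 0.05. Hoxa5, which patterns the neck and the lung, read 5.80, 5.75 and 5.98 in Notch3-/- pools, against 6.21, 6.24 and 6.43 in Notch3+/+ pools (probe set 1448926_at). All Notch3-/- pools were below all Notch3+/+ pools, by a change of -0.45 (SE 0.10, interval -0.68 to -0.22), or 1.37-fold, with a limma adjusted p of 0.186. The second Hoxa5 probe set, 1443803_x_at, whose suffix marks probes that may match other sequences, read 0.02 (SE 0.07), and the mean of both gave -0.21. Hoxa7, a trunk gene, read 5.63, 5.66 and 5.51 in Notch3-/- pools, against 5.77, 6.15 and 6.01 in Notch3+/+ pools (probe set 1449499_at). These pools did not overlap either, and the change was -0.38 (SE 0.11, interval -0.64 to -0.12, limma adjusted p = 0.295). With array weights the Hoxa7 change was -0.52 and passed, at an adjusted p of 0.0307. Hoxa5 and Hoxa7 lie next to each other in cluster a but for Hoxa6, and Hoxa9 on the other side of Hoxa7 read -0.04.

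The other genes of groups 2 to 8 showed smaller differences. Hoxb3 read 7.17, 7.42 and 7.12 in Notch3-/- pools, against 7.11, 6.96 and 7.09 in Notch3+/+ pools on its brightest probe set. Those pools did not overlap, by a margin of 1 hundredth of a log2 unit, and the second Hoxb3 probe set read -0.05 beside 0.18 (SE 0.10) for the first, which was 0.092 without Notch3-/- replicate 2. Hoxb2 read 5.37, 5.05 and 4.94 in Notch3-/- pools, against 5.46, 5.27 and 5.16 in Notch3+/+ pools, a change of -0.18 (SE 0.13) with overlap, which was -0.30 when Notch3-/- replicate 1 was left out, -0.087 when Notch3-/- replicate 3 was and -0.095 when Notch3+/+ replicate 1 was. Hoxc6, a gene of forelimb-level trunk, varied most among Notch3-/- pools, at 5.18 ± 0.45 in Notch3-/- and 5.44 ± 0.10 in Notch3+/+ pools (SD, n = 3 each), and its 3 probe sets read -0.26, -0.08 and -0.02. The remaining genes, Hoxa3, Hoxb4, Hoxc4, Hoxb5, Hoxb6, Hoxc8 and Hoxd8, had changes between -0.04 and 0.09.

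**Figure D3:**
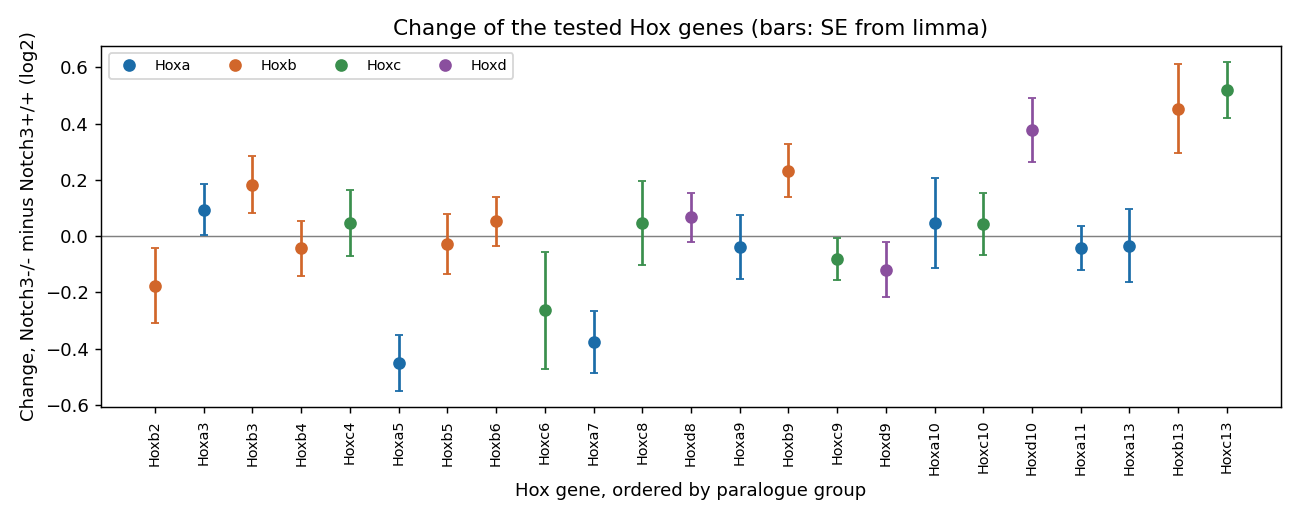
Change in log2 level, Notch3-/- minus Notch3+/+, of the 23 tested Hox genes in order of paralogue group, coloured by cluster, with SE from limma as bars. Hoxc13, Hoxb13 and Hoxd10 lie highest at 0.52, 0.45 and 0.38, and Hoxa5 and Hoxa7 lowest at -0.45 and -0.38.

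Of the 23 Hox genes tested, 12 read higher and 11 lower in Notch3-/- pools, with a median change of 0.04, beside -0.0033 over all 12732 genes tested. The median size of a change, whatever its sign, was 0.08 for Hox genes and 0.097 for all genes. The median was 0.09 for groups 1 to 3, -0.03 for groups 4 to 8 and 0.04 for groups 9 to 13, and -0.04, 0.05, 0.05 and 0.07 for clusters a, b, c and d. None of these medians exceeded 0.1 in size. In cluster a, 5 of 7 genes read lower. Within a genotype, the median SD of the Hox genes was 0.12 among Notch3-/- pools and 0.11 among Notch3+/+ pools, beside 0.12 and 0.09 for all genes. No pool was highest in more than 5 of the 23 genes or lowest in more than 6.

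The promoters of Hoxa5, Hoxa7 and Hoxd10, the 3 genes with the smallest p among those matched in the RefSeq promoter table, are shown because Notch3 signals through the DNA-binding protein RBPJ, and Cdx factors and posterior Hox proteins act on Hox clusters. Each covers 300 bases around the gene's start, most of them upstream, in RefSeq build GRCm38.p6. The promoters of Hoxc13 and Hoxb13 were not analysed here. Hoxa5 lies at chr6:52204538-52204837 and Hoxa7 at chr6:52218524-52218823, both on the minus strand, and Hoxd10 at chr2:74691641-74691940 on the plus strand. The motifs searched on both strands were TGGGAA (the core of RBPJ sites), TTTATG (a core of Cdx and posterior Hox sites) and TATAAA (the TATA element), which do not overlap in these sequences, and matches are in capitals.
Hoxa5: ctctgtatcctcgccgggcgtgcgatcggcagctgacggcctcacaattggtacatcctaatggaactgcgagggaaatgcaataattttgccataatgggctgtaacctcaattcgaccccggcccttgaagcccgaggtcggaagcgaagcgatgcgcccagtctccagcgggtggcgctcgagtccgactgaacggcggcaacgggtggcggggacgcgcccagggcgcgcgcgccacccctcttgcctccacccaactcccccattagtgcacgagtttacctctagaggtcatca
Hoxa7: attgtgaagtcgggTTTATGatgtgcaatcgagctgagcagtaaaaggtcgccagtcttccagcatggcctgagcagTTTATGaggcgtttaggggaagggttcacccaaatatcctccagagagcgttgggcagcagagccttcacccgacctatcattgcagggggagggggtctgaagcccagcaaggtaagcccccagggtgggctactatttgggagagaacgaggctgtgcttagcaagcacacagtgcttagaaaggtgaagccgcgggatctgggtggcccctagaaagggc
Hoxd10: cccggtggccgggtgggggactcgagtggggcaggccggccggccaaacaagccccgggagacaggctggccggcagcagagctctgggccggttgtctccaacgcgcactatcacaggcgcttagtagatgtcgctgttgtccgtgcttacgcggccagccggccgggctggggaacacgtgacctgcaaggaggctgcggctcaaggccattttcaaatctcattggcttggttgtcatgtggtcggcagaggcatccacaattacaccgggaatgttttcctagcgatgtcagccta

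Hoxa7 held TTTATG at 2 places, and no letters of the 3 motifs stood in the Hoxa5 and Hoxd10 windows. Promoters were found for 19 of the 33 Hox genes, as 21 sequences. TTTATG was in 3 of these (Hoxa7, Hoxd11 and Hoxd3), or 14.3%, beside 11.9% of all 32851 promoters. TGGGAA was in 4 (Hoxa3, Hoxa9, Hoxa13 and Hoxd3), or 19% of them, beside 25.6% of all promoters, and these genes had changes of 0.09, -0.04 and -0.03, with Hoxd3 below the filter level. TATAAA was in 2 (Hoxa10 and Hoxd13), or 9.52%, beside 13.6% of all. The Hox promoters had a median of 58% G and C and 15 CpG pairs, beside 52.7% and 7 for all promoters.

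Of the genes for proteins that work with Hox factors, 8 of the 9 measured lay above the filter level and none passed the test, with Pbx4 below it at 2.87. TALE homeodomain proteins of the Pbx, Meis and Pknox families bind DNA together with Hox proteins. The list also holds Pbxip1, which encodes a Pbx-interacting protein outside these families and read -0.16. Of 8 tested in this list, 4 read higher and 4 lower in Notch3-/- pools, with a median of 0.00, and 2 had an unadjusted p under 0.05, or 25%, beside 11.9% of all genes. Pbx3 read 6.17, 6.34 and 6.34 in Notch3-/- pools, against 6.04, 5.89 and 6.08 in Notch3+/+ pools, a change of 0.28 (SE 0.09, limma adjusted p = 0.336). Meis1, a partner of posterior Hox proteins, read 5.57, 5.74 and 5.64 in Notch3-/- pools, against 5.44, 5.44 and 5.45 in Notch3+/+ pools, a change of 0.21 (SE 0.08, limma adjusted p = 0.392). In both genes the pools did not overlap, as for 17.3% of all genes, and Meis2 read 0.27 (SE 0.14) with overlap.

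No upstream regulator of the clusters that was tested passed the threshold. Cdx1, Cdx2, Cdx4, Evx1 and Evx2, homeobox genes of the embryonic tail end, all had 6-array means below the filter level, with averages of 1.86 to 3.75 in Notch3-/- pools and 1.80 to 3.89 in Notch3+/+ pools. Of 19 Polycomb genes, whose products keep Hox genes silent, 0 passed in limma. An unadjusted p under 0.05 was found for 1 of them, or 5.26%, beside 11.9% of all genes. It was Rnf2, at 0.22 (SE 0.09). Phf19 read -0.15 and Ezh2, the methyltransferase, 0.20, and the median was -0.02. Of 13 trithorax group and demethylase genes, which keep Hox genes active, 0 passed in limma and 0 had an unadjusted p under 0.05, beside 11.9% of all genes. Their median was -0.0033, with values of -0.11 for Kmt2a, -0.13 for Kmt2b and 0.10 for Kmt2c.

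Of 14 antisense and non-coding transcripts of the clusters in the list, 3 were measured, and these lay above the filter level in both genotypes. Hoxa11os averaged 6.10 ± 0.19 in Notch3-/- pools and 6.22 ± 0.08 in Notch3+/+ pools, and Hoxb5os averaged 5.97 ± 0.17 in Notch3-/- pools and 5.89 ± 0.26 in Notch3+/+ pools (SD, n = 3 each). Hoxd3os1, at 7.84 ± 0.17 in Notch3-/- pools and 7.87 ± 0.15 in Notch3+/+ pools (SD, n = 3 each), lay well above the level while Hoxd3 itself did not. None passed, with changes of -0.12, 0.08 and -0.03 and 0 of 3 at an unadjusted p under 0.05 in limma, beside 11.9% of all genes.

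Genes that border the clusters gave 0 passes in limma among 13 tested, with 2 at an unadjusted p under 0.05, or 15.4%, beside 11.9% of all genes. Cbx1, a heterochromatin protein gene near cluster b, read 7.64, 8.05 and 7.85 in Notch3-/- pools, against 7.27, 7.41 and 7.36 in Notch3+/+ pools. These pools did not overlap, as for 17.3% of all genes, and the change was 0.50 (SE 0.11, limma adjusted p = 0.198). Smug1, near cluster c, read -0.23 and Snx10, near cluster a, -0.17.

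Of 15 other regulators of position in trunk, limb and tail, 9 were tested and 0 passed in limma. The limb mesenchyme homeobox genes Prrx2 and Prrx1 were the 2 with an unadjusted p under 0.05, or 22.2% of the 9, beside 11.9% of all genes. Prrx2 read 7.17, 7.31 and 7.32 in Notch3-/- pools, against 6.97, 6.99 and 6.54 in Notch3+/+ pools, a change of 0.43 (SE 0.13, limma adjusted p = 0.306). Prrx1 read 9.86, 10.03 and 9.95 in Notch3-/- pools, against 9.75, 9.72 and 9.53 in Notch3+/+ pools, a change of 0.28 (SE 0.09, limma adjusted p = 0.344). Neither pair of groups overlapped, as for 17.3% of all genes. Tbx18, a T-box gene of mural cells, read 0.28 (SE 0.12). The hindlimb genes Pitx1 and Tbx4 were below the filter level.

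**Figure D4:**
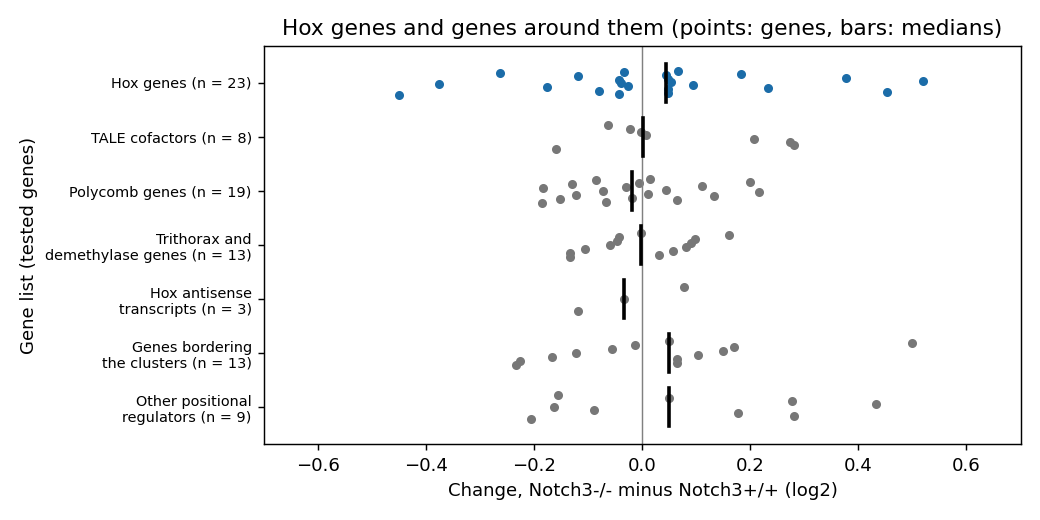
Each point is the change in log2 level, Notch3-/- minus Notch3+/+, of one tested gene, by list, with the list median as a bar and points spread vertically only to separate them. The Hox genes spread from -0.45 to 0.52 around a median of 0.04, and the 13 trithorax and demethylase genes from -0.13 to 0.16 around -0.0033.

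Markers of other cells also differed between pools. Adventitial fibroblast markers, cells that keep a Hox pattern, were above the level for all 6 genes, with a summed level of 14.53 to 14.66 in Notch3-/- pools and 14.51 to 14.60 in Notch3+/+ pools. Dpt, the dermatopontin gene, rose by 0.58 (limma adjusted p = 0.0499), a call lost with any pool left out, at adjusted p of 0.0684 to 0.261. The others read 0.58 for Pi16, 0.15 for Pdgfra, 0.04 for Lum, 0.01 for Dcn and -0.04 for Col1a1, none past the threshold. Tendon markers had summed levels of 11.41 to 11.56 in Notch3-/- pools and 10.95 to 11.35 in Notch3+/+ pools, with changes of 0.77 for Thbs4, 0.41 for Fmod, -0.12 for Tnmd and -0.04 for Mkx, none past the threshold, and Scx below the level. Skeletal muscle markers ran from 8.92 to 10.19 in Notch3-/- pools and from 9.52 to 9.90 in Notch3+/+ pools, and cartilage and bone markers from 8.58 to 9.003 in Notch3-/- pools and from 8.33 to 9.45 in Notch3+/+ pools. Mast cell markers ran from 9.93 to 10.47 in Notch3-/- pools and from 8.97 to 10.03 in Notch3+/+ pools, macrophage markers from 10.33 to 10.65 in Notch3-/- pools and from 9.74 to 10.34 in Notch3+/+ pools, and endothelial markers from 11.38 to 11.68 in Notch3-/- pools and from 11.65 to 11.81 in Notch3+/+ pools. An unadjusted limma p under 0.05 was found for 4 of 5 mast cell markers (80%) and 3 of 5 macrophage markers (60%). All of these read higher in Notch3-/- pools. Among 6 endothelial markers, 1 (16.7%) had such a p and read lower. The share was 11.9% for all genes, and no marker of these 3 lists passed the threshold. Smooth muscle markers had overlapping summed levels, at 14.61 to 14.63 in Notch3-/- pools and 14.50 to 14.71 in Notch3+/+ pools, a sum made up chiefly of the bright Acta2 and Tagln. Of the 7 genes in that list, 0 passed in limma and 3 (42.9%) had an unadjusted p under 0.05, beside 11.9% of all genes, in both directions and without overlap of the pools. They were Cnn1 (calponin), which read higher, and Smtn (smoothelin) and Myocd, a transcriptional coactivator of smooth muscle genes, which read lower. The part of these cells in the Hox values was not tested.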

How the data were processed

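The authors deposited 1 log2 value per probe set and array, computed with RMA according to the submitters' processing notes. That method adjusts background, quantile-normalizes the arrays and combines the probes of a set, and it compresses differences of dim and nearly saturated probe sets. No version or chip definition is named in the sources used here, and the log2 scale was inferred from the range (1.38 to 13.38, array medians 4.50 to 4.57). No depth, detection call or batch is given, and the 3 arrays per genotype limit the precision.

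Of 45101 probe sets, 64 controls were left out. Probe sets were named from the platform annotation, with symbols updated by gene number through RefSeq. The 27027 with a 6-array mean at or above the 40th percentile (3.83) entered limma 3.58.1 under R 4.3.3 (lmFit and eBayes, genotype as the only term, two-sided p adjusted by Benjamini-Hochberg over all 27027). Changes are Notch3-/- minus Notch3+/+. Summed marker levels are the log2 of summed antilogs. On simulated arrays of these 27027 probe sets, 200 of them changed, 40% of 1.5-fold and 80% of 2-fold changes were called. There were 9 false calls at each size. The largest change of a tested Hox gene, 1.43-fold, was smaller than any size simulated, so recovery at Hox-sized changes is not known from it.

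The members and lists were chosen with earlier results of these data known. In full were described any Hox gene called, the 8 with the smallest p and the tested genes of groups 10 to 13; in other lists, called members and up to 3 with the smallest p. Genes named beyond this were chosen after their values were seen or complete a count. Alternatives varied the filter, normalization, variance model, weights, replicate block, probe sets per gene, threshold and pools. Same-numbered pools deviated together at r = 0.24, 0.05 and -0.07, and pools of unlike number at -0.17 to 0.14. The labels state no pairing, and correlations among so few pools cannot settle it.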

Additional observations from a re-analysis of the deposited data

How the results depend on the processing

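The number of tested Hox genes called was 0 under every alternative except array weights, where it was 2 (Hoxc13 higher at 0.44, Hoxa7 lower at -0.52), including the adjusted threshold of 0.1 and the omission of any pool (0 to 0). The smallest weight was 0.29, for Notch3-/- replicate 2. The 2 pools that carried most of that fit were Notch3-/- replicate 3, at 3.04, and Notch3+/+ replicate 2, at 2.94. The number with an unadjusted p under 0.05 was 5 to 9 under other settings and 4 to 8 with a pool left out. The number of Hox genes above the level was 9 at the chemosensory receptor mark and 23 with any pool left out. It was 20 with the cut at the 50th percentile, where Hoxa13 and Hoxb9 were among the genes lost. When at least 50% of a gene's probe sets had to pass, it was 22. With array weights the median change was -0.0072 over all Hox genes and -0.071 in groups 1 to 8. With a pool left out the medians ran from -0.052 to 0.060 over all Hox genes, from -0.073 to 0.065 in groups 1 to 8 and from -0.018 to 0.087 in groups 9 to 13, so none has a settled sign. The sign of Hoxa13 turned with array weights (0.033) and without Notch3-/- replicate 2 or Notch3+/+ replicate 2, with a range of -0.13 to 0.080 over the pools left out. That of Hoxc10 turned without replicate 1 of either genotype (range -0.018 to 0.147), and that of Hoxa10 without Notch3-/- replicate 1 or 3 (range -0.065 to 0.245). The cause was not tested. Notch3 stayed between -3.96 and -3.52. With the replicate number as a block, 0 Hox genes were called and 5 had an unadjusted p under 0.05, the median was 0.04 over all Hox genes, 0.01 in groups 1 to 8 and 0.04 in groups 9 to 13, Notch3 read -3.72 and kept its call, and Dpt no longer passed (adjusted p = 0.121).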
